A study of Mus musculus with 6 samples.

Results

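The genes described here are 10 genes of the alveolar type 2 cell, the cell that makes, stores and recycles lung surfactant: Sftpc, Sftpb, Sftpd, Sftpa1, Abca3, Lamp3, Napsa, Slc34a2, Nkx2-1 and Lpcat1. They were chosen by name, as 10 of the 49943 RefSeq genes on chromosomes 1 to 19, X and Y, with earlier results of these data known; the rule itself uses no measured value. For each gene every peak that touched its window, the annotated span (build mm10, the RefSeq assembly GRCm38.p6) plus 5 kb on each side, was taken from each of 6 peak lists. Each list came from the whole lung of 1 mouse, where methylated DNA was captured with a methyl-CpG-binding protein and sequenced (MBD-seq), so a peak marks a place where captured, methylated fragments piled up. There were 3 wild-type mice and 3 mice labelled SPC-DNMTdelta3B/DG (spelled SPC-DNMTdeltaB/DG for replicate 2), all aged 12 to 16 months, and the labels call them biological replicates. The transgene is a deletion form of DNMT3B, an enzyme that sets new DNA methylation, driven by the promoter of SPC. SPC is another name of Sftpc, one of the genes followed here, and the labels do not give the sequence of that promoter. The labels name several founder lines and do not say from which line each animal came. Type 2 cells are a minority of lung cells, so a peak in whole-lung DNA cannot be assigned to them, and a change in the number of these cells and a change of methylation within them cannot be told apart.

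Pulmonary surfactant is a film of lipid and protein that lowers surface tension in the alveolus. Its lipid is made in the type 2 cell, packed with the hydrophobic proteins B and C into lamellar bodies and secreted, while the collectins A and D bind microbes and take part in clearance. DNA methylation at CG dinucleotides near a gene's start is often associated with a silent promoter, whereas methylation inside gene bodies is common in transcribed and silent genes alike. MBD capture responds to the number of methylated CG dinucleotides in a fragment, so a place with few of them gives little signal whatever its methylation.

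No peak of any list lay over the 250 bases that the RefSeq promoter table gives before the start of any member it holds. The share of all promoters with a peak over the same bases was not computed. Within 500 bp of the start, 0% of the pairs of member and library had a peak, against 5.30% for protein-coding genes. Few genes of any kind have a peak there, so its absence is not particular to these members. RefSeq promoter sequence (GRCm38.p6) was matched for 7 of the 10 members, and not for Sftpc, Sftpd and Napsa, whose strand was therefore also not taken and whose ends are called left and right. For Abca3 the table's start lies inside the annotated span, so that 102 of its 250 bases fall within the span, while the other 6 stretches end at the edge of the span used here. The stretches differed widely in their number of CG dinucleotides, the letters CG read on either strand, of which 93.4% of 21263 protein-coding promoters of the same length held at least 1 (median 10). Lamp3 had 0, as had 6.61% of these promoters, and Sftpa1 had 3, where 29.0% had no more. Sftpb had 7 and Nkx2-1 had 9, near the middle of the range. Lpcat1 had 16 and Abca3 had 21, and Slc34a2, with 28, was above most others: 91.2% of promoters had no more. To show this range, 4 of the stretches are printed, 5′ to 3′ on the gene's strand with every CG in capitals. They are Lamp3 (chr16:19706366-19706615, minus strand), Sftpa1 (chr14:41131538-41131787, plus strand), Sftpb (chr6:72304360-72304609, plus strand) and Slc34a2 (chr5:53049103-53049352, plus strand).
Lamp3: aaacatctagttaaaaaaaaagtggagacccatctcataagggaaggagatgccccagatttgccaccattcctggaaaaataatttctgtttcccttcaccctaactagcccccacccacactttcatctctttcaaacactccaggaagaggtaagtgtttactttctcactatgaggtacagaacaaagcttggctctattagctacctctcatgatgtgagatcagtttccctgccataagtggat
Sftpa1: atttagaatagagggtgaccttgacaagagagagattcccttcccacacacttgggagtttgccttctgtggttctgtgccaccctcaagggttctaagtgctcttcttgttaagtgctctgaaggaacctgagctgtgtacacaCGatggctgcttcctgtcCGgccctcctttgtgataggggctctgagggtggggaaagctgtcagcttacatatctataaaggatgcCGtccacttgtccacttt
Sftpb: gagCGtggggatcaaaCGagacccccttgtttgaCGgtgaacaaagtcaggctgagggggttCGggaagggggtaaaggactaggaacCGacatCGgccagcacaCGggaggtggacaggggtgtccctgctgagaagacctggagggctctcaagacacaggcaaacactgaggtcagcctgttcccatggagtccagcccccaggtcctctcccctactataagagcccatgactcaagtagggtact
Slc34a2: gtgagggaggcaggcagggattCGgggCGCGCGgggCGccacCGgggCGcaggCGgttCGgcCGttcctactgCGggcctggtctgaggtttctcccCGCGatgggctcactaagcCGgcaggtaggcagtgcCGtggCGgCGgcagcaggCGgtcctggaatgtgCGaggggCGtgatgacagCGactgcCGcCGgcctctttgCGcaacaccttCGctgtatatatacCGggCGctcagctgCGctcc
The same stretch of Nkx2-1, the lineage factor described further on, lies at chr12:56536909-56537158 on the minus strand.
Nkx2-1: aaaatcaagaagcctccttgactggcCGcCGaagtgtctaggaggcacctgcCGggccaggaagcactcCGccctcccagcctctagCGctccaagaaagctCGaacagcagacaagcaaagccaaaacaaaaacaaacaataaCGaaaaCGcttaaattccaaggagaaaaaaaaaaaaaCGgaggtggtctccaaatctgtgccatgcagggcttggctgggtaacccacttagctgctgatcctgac

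**Figure D1:**
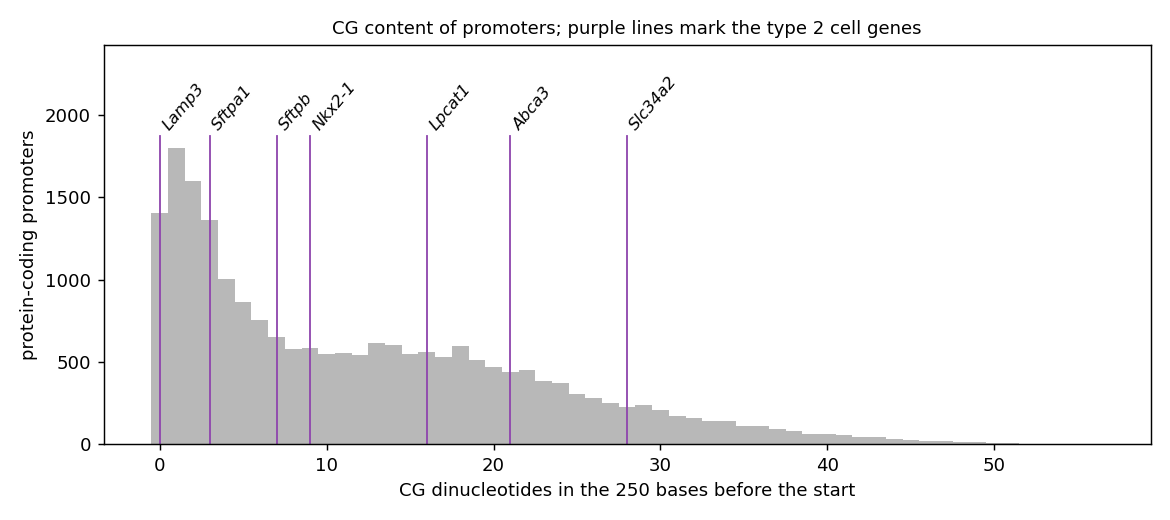
Histogram of the number of CG dinucleotides in the 250 bases before the start (x axis) over 21263 protein-coding promoters (y axis, number of promoters). Purple lines mark the 7 type 2 cell genes with a promoter sequence, from 0 in Lamp3 to 28 in Slc34a2.

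Peaks within 1000 bp of a start were few in these genes, and 20 of the 29 places with a peak in any list reached into a gene body. Zones were set around the gene ends: a start zone and an end zone of 1000 bp on each side of the annotated start and end, the body between them, and the flanks out to 5 kb. Of the 7 members with a known strand, 1 had a peak in the start zone in any list, where 14.8% of 17492 protein-coding genes with a strand did, so 1 of 7 is about the background. With a start zone of 2000 bp, 19.05% of the pairs of member and library had a peak there against 12.8% for protein-coding genes, where it had been 2.38% against 7.38%, so the side on which the members fall depends on the width of the zone. That 1 was Sftpa1, in transgenic replicate 1 alone, by a peak whose near edge was 980 bp from the start. An end zone held a peak in 2 of these 7 genes, Lamp3 and Lpcat1. The share of protein-coding genes with an end-zone peak in any list was not computed. Over all 6 lists the end zone had a peak in 10 of 42 pairs of member and library (23.8%). For protein-coding genes it was 14.1% over the 6 lists, and 3.69% to 20.6% in single lists. The 10 pairs are these 2 genes counted once per list, Lamp3 in 6 and Lpcat1 in 4, and are not independent. The body held a peak in 7, 6 and 5 of the 10 members in transgenic replicates 1, 2 and 3 and in 3, 5 and 1 in wild-type replicates 1, 2 and 3. The same lists had a peak in the body of 60.2%, 59.8%, 51.8%, 46.5%, 59.2% and 28.3% of protein-coding genes. The members were thus at or above that share in transgenic replicates 1 and 2 and below it in the other 4 lists.

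**Figure D2:**
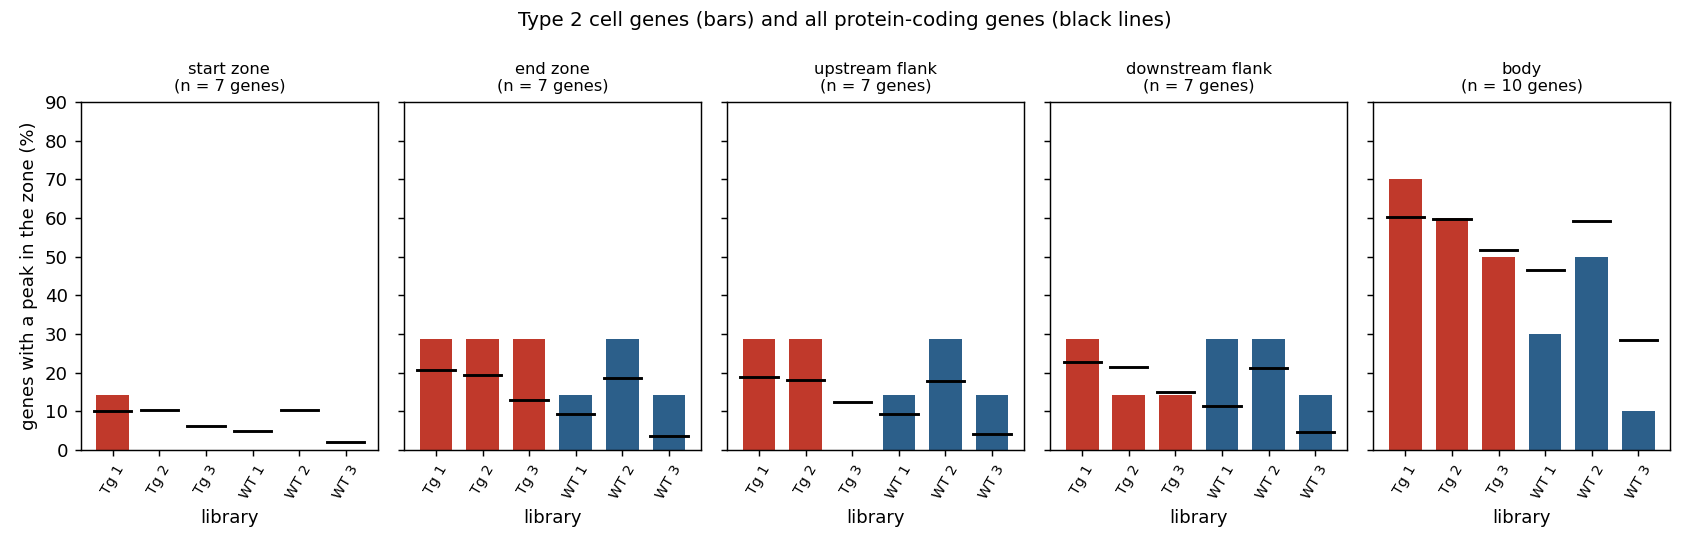
Percent of genes with at least 1 peak in each zone (y axis) by library (x axis; Tg, transgenic; WT, wild type), with bars for the type 2 cell genes and black lines for all protein-coding genes. The start zone was empty in 5 of 6 lists, and the body bars fall from 70% in transgenic replicate 1 to 10% in wild-type replicate 3.

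The lists differ in length, and this bears on every comparison of the groups. The transgenic lists of replicates 1, 2 and 3 cover 63.4, 54.2 and 35.4 Mb and the wild-type ones 26.4, 54.4 and 6.88 Mb, and the longest has 120349 peaks and the shortest 30637. Read depth per library is unknown. A larger share of a window covered by peaks in the transgenic lists is therefore read against the share of all genes that show it. Over the 10 windows the transgenic mice had 23, 18 and 12 peaks and the wild-type mice 7, 19 and 3, so wild-type replicate 2 had as many as transgenic replicate 2 and 1 more. The mean share of a member's window covered by peaks was 2.93%, 1.95% and 1.22% in transgenic mice against 0.839%, 2.07% and 0.258% in wild-type mice. Over all protein-coding genes it was 3.88%, 3.20% and 2.01%, and 1.45%, 3.37% and 0.341%, which is above the members' mean in each of the 6 lists. Genes with high coverage raise these means. The protein-coding medians were 2.72%, 2.29% and 1.24% in the transgenic and 0.761%, 2.30% and 0% in the wild-type lists. Some of these lie below the members' mean and some above.

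In 2 of the 10 members, Sftpc and Lamp3, the covered share was higher in every transgenic library than in every wild-type library, and in 0 members was it lower in every transgenic library. Over all 49943 genes 5.2% showed the first pattern, and over 21887 protein-coding genes 5.44% showed the first and 0.0137% the second. Nearly all genes whose groups were apart were thus higher in the transgenic lists, members or not. With the covered length divided by the total covered by each list, 1 member, Lamp3, was higher in every transgenic library and 0 were lower, against 4.93% and 2.1% of protein-coding genes. The separation of Lamp3 on this scale rests on where its window ends, as described below. Group means were compared by a two-sided exact permutation test, for which 0.10 is the smallest p that 3 animals against 3 can reach. Sftpc and Lamp3 had an exact permutation p of 0.10 and the other members had 0.40 to 1. Benjamini-Hochberg adjustment over 49943 genes gave an adjusted p of 1 for each member. No comparison of the 2 groups was therefore past a threshold at this number of animals. The median difference, transgenic minus wild type, was 1.10 percentage points over the 10 members and 0.87 over all protein-coding genes.

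**Figure D3:**
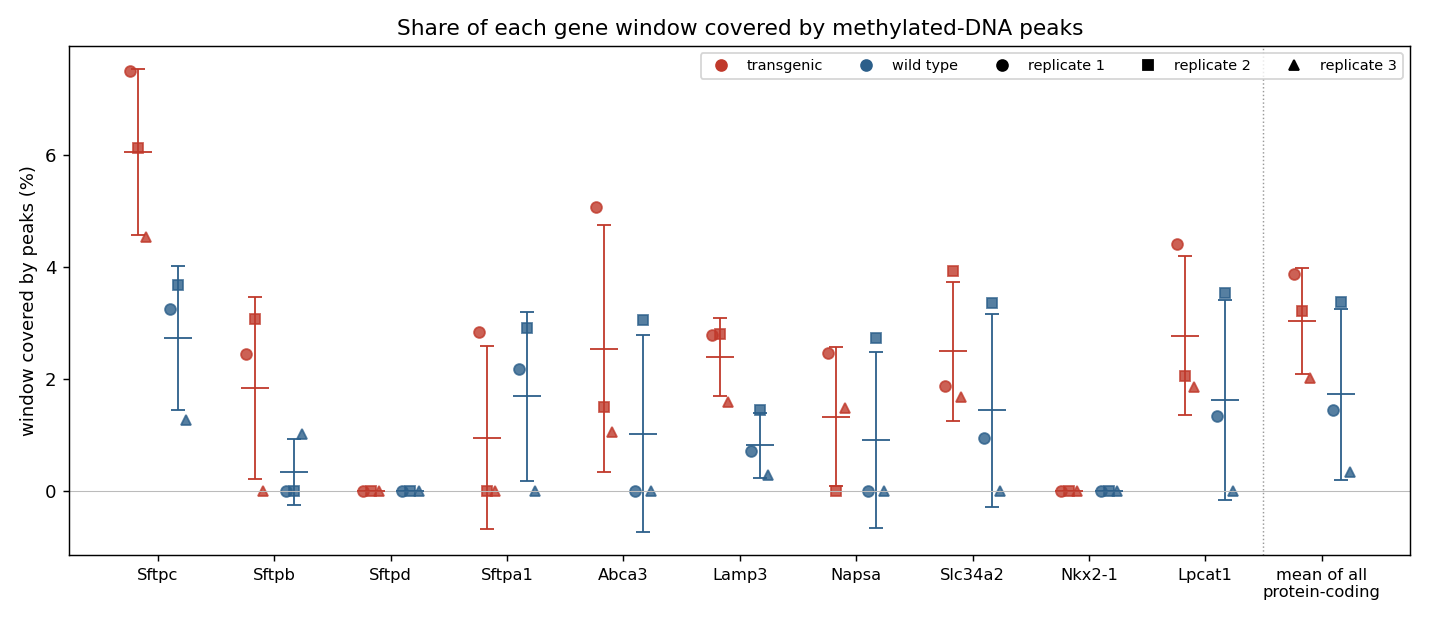
Percent of each gene's window covered by peaks (y axis), per library, for the 10 genes and for the mean over all protein-coding genes (x axis). Points are libraries, horizontal bars are group means and error bars are SD over 3 animals (lower error bars may pass 0). Sftpc and Lamp3 are the genes whose groups do not overlap.

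Sftpc encodes surfactant protein C, a small hydrophobic peptide that helps the lipid film spread, and its mouse locus is chr14:70520941-70524081. Peaks covered 7.49%, 6.13% and 4.53% of its window in transgenic replicates 1, 2 and 3 and 3.25%, 3.68% and 1.27% in wild-type replicates 1, 2 and 3. That is 6.05 ± 1.48% against 2.73 ± 1.28% (SD, n = 3 each), a difference of 3.32 percentage points with exact permutation p = 0.10. All 6 lists had a peak in one region of the gene, chr14:70521891-70522869, which begins 950 bp from the left end. To place a peak within its own list, its score, the authors' peak caller's own value, is given as a percentile among all peaks of that list. A percentile depends on how many weak peaks a list holds, and the lists hold 30637 to 120349 peaks. These ranks therefore describe each list by itself and cannot establish whether lists or groups differ. The Sftpc region stood at percentiles of 80.8, 78.3 and 80.1 in the lists of transgenic replicates 1, 2 and 3 and at 61.4, 72.3 and 9.20 in those of wild-type replicates 1, 2 and 3. It was thus above the median of 5 lists and among the weaker peaks of wild-type replicate 3, the shortest list.

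Part of the difference at Sftpc came from another region. At chr14:70527200-70527432, which lies 3119 bp beyond the right end of Sftpc and before Lgi3 (start at 70528547), a secreted-protein gene, transgenic replicates 1 and 3 had a peak, with percentiles of 60.9 and 45.6. Transgenic replicate 2 and the 3 wild-type lists had none there. With a flank of 2 kb, which leaves this region out, the groups of Sftpc overlapped (difference 4.04 percentage points, exact permutation p = 0.30). They also overlapped when only peaks with a score of 96.3 (the median of all lists pooled) or more were kept (difference 3.43, exact permutation p = 0.30). Per Mb covered by the list, the transgenic values of 15.5, 14.9 and 16.8 bp lay among the wild-type values of 16.2, 8.88 and 24.3 bp, and the difference was -0.72 bp. The promoter sequence within the transgene was not used here, and whether reads from it align to Sftpc was not tested.

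Sftpb encodes surfactant protein B, which is needed for lamellar bodies and for the film itself, at chr6:72304610-72314373. A region 1401 bp past the start, chr6:72306011-72306498, had a peak in transgenic replicates 1 and 2 (percentiles 52.6 and 21.7) and in no other list. Another peak, 8191 bp past the start, was found in transgenic replicate 2 alone. Wild-type replicate 3, whose list is the shortest, had the only wild-type peak, 1272 bp upstream of the start, with a percentile of 40.9. The covered share was 2.44%, 3.06% and 0% in transgenic mice against 0%, 0% and 1.02% in wild-type mice, and the groups overlapped (exact permutation p = 0.40). In the 3 lists without a peak in the window the nearest peak was 13953 to 13968 bp downstream of the gene.

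The collectin genes Sftpa1 (chr14:41131788-41136373) and Sftpd (chr14:41172212-41185198) lie 35839 bp apart and had the fewest peaks of the surfactant proteins. The window of Sftpd was free of peaks in all 6 lists, and its nearest peaks, from 5382 to 113363 bp away, were not at one place. Nkx2-1 was also without a peak in any list, so 2 of 10 members had none, against 19.2% of protein-coding genes. Sftpa1 had 1 region, upstream of its start at chr14:41130361-41130808, with a peak in transgenic replicate 1 and in wild-type replicates 1 and 2, at low percentiles of 34.8, 12.1 and 14.2. Its covered share was 2.83%, 0% and 0% in transgenic mice against 2.17%, 2.90% and 0% in wild-type mice. It was the only member with a lower mean in the transgenic group, by -0.75 percentage points, with overlapping groups (exact permutation p = 0.70). Leaving out 1 library gave -1.69 (without transgenic replicate 1) to -0.14 (without wild-type replicate 2), and with only peaks of a score of 96.3 or more the gene had no peak in any list.

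Abca3 and Lpcat1, which serve the lipid of surfactant, carried the most regions, all but 2 of them in the gene body. Their windows were also among the longest, at 68284 and 59190 bp against 13141 bp for Sftpc. The counts of regions are not scaled to this length. Abca3 moves phospholipid into the lamellar body, and Lpcat1 is an acyltransferase that makes its main phosphatidylcholine. Abca3 (chr17:24351921-24410204) had 7 peaks in transgenic replicate 1, 3 in replicate 2 and 2 in replicate 3, and 0, 6 and 0 in wild-type replicates 1, 2 and 3. Its peaks fell in 7 regions, all inside the gene, the nearest of them 13897 bp from the start. The regions shared most widely, chr17:24365818-24366318 and chr17:24400257-24400867, each had a peak in the 3 transgenic lists and in wild-type replicate 2. The covered share was 5.07%, 1.50% and 1.04% against 0%, 3.05% and 0%, so wild-type replicate 2 lay above 2 of the 3 transgenic values (exact permutation p = 0.50). With only peaks of a score of 96.3 or more, Abca3 was higher in every transgenic library (0.949% against 0.166% on average, exact permutation p = 0.10), as were 4.3% of protein-coding genes.

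Lpcat1 (chr13:73467231-73516420) had 6, 3 and 3 peaks in transgenic mice against 2, 5 and 0 in wild-type mice, in 7 regions. A body region, chr13:73501220-73501697, had a peak in every list but wild-type replicate 3. Its percentiles were 54.7, 35.5 and 65.0 in the lists of transgenic mice, and 59.5 and 51.3 for wild-type replicates 1 and 2. A region over the annotated end of the gene, chr13:73516175-73516792, had a peak in the 3 transgenic lists and in wild-type replicate 2. The covered share was 4.41%, 2.05% and 1.85% against 1.33%, 3.54% and 0% (exact permutation p = 0.40).

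Lamp3 encodes a lysosomal membrane glycoprotein that marks lamellar bodies, and its peaks lay at and beyond its 3′ end and far upstream, not at its start. The gene, chr16:19653381-19706365, is on the minus strand. The region at its end, chr16:19651625-19652632, which lies 749 bp beyond the annotated end, had a peak in all 6 lists, with percentiles of 84.8, 76.2 and 81.6 in the transgenic and 30.6, 77.4 and 45.8 in the wild-type lists. Farther downstream, at chr16:19647808-19648601, the percentiles were 86.0, 83.4 and 87.8 in the transgenic and 55.2, 80.6 and 2.51 in the wild-type lists, and the peak of wild-type replicate 3 lay wholly outside the window. Inside the gene there were peaks in transgenic replicates 1 and 2 only.

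The covered share of the Lamp3 window was 2.77%, 2.80% and 1.59% in transgenic mice against 0.705%, 1.44% and 0.287% in wild-type mice, or 2.39 ± 0.69% against 0.81 ± 0.58% (SD, n = 3 each; exact permutation p = 0.10). Per Mb covered by the list the values were 27.5, 32.6 and 28.3 bp against 16.8, 16.7 and 26.3 bp, and the groups did not overlap. Both edges of the window matter for this gene. The downstream edge cuts the region chr16:19647808-19648601. The peak of wild-type replicate 3 there, of 167 bp, was left out, where 181 bp were counted for that list. At the upstream edge a strong region, chr16:19711266-19711938, crosses out of the window. Its percentiles were 91.4, 94.9 and 84.1 in transgenic mice, and 83.5 and 92.7 in wild-type replicates 1 and 2. Transgenic replicates 1 and 2 reached into the window by 81 and 100 bp, while the peaks of transgenic replicate 3 and wild-type replicates 1 and 2 began 66, 60 and 18 bp outside it. Those 81 bp are part of the 1746 bp covered in transgenic replicate 1. Its 27.5 bp per Mb lay just above the 26.3 of wild-type replicate 3. Without those 81 bp, transgenic replicate 1 would lie just below wild-type replicate 3. The separation of the per-Mb values thus rests on where the window edge falls. With a flank of 10 kb, which takes both edge regions in whole, the groups of Lamp3 overlapped (difference 1.77 percentage points, exact permutation p = 0.20).

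**Figure D4:**
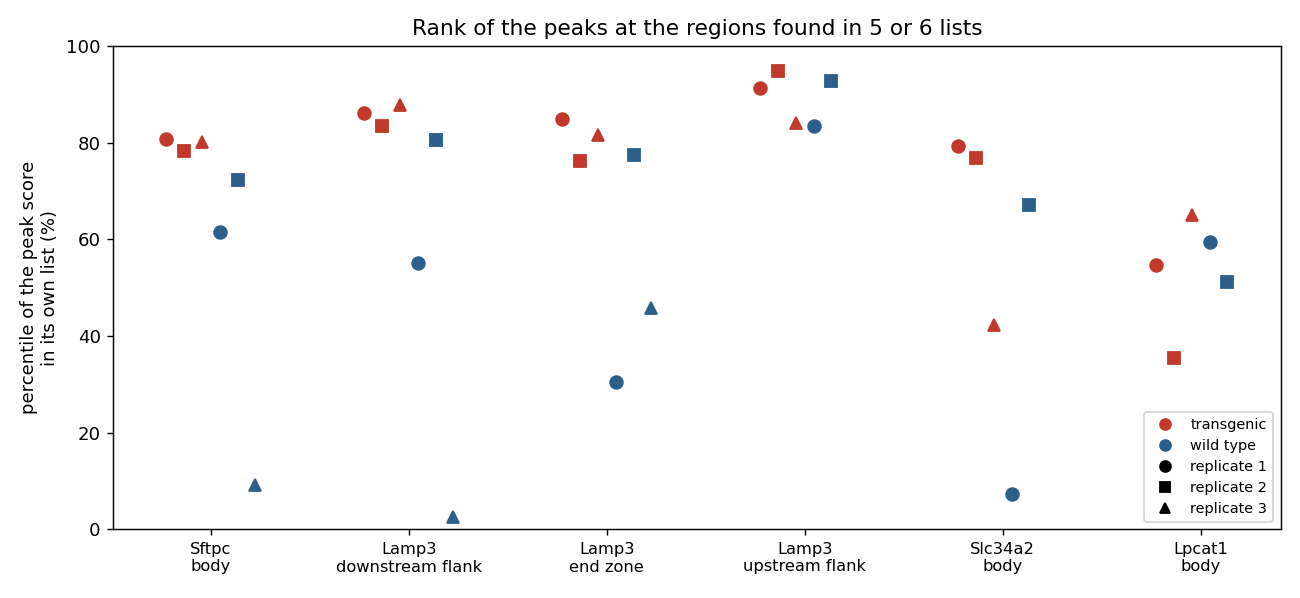
Percentile of the peak score in its own list (y axis, in percent) for each of the 6 regions of these genes with a peak in 5 or 6 lists (x axis); a missing point means no peak. The Lamp3 upstream region ranks between 83.5 and 94.9 in its 5 lists. Wild-type replicate 3, the shortest list, has its points of the Sftpc body and the Lamp3 downstream flank at 9.20 and 2.51. Ranks from lists of different length cannot establish whether the groups differ.

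Napsa encodes napsin A, a protease that processes the precursors of surfactant proteins B and C, at chr7:44572445-44586846. It had 1 region, inside the gene at chr7:44580988-44581698, with a peak in transgenic replicates 1 and 3 and wild-type replicate 2, at percentiles of 70.6, 16.4 and 62.4. The covered share was 2.47%, 0% and 1.48% against 0%, 2.72% and 0% (exact permutation p = 1). Slc34a2 encodes a phosphate transporter of the type 2 cell surface, at chr5:53049353-53071664. Its region toward the 3′ end, chr5:53068973-53069633, had a peak in every list but wild-type replicate 3, with percentiles of 79.3, 76.8 and 42.4 in transgenic mice and 7.25 and 67.1 in wild-type replicates 1 and 2. Its covered share was 1.87%, 3.92% and 1.67% against 0.944%, 3.35% and 0% (exact permutation p = 0.40). Upstream, a peak of transgenic replicate 2 and one of wild-type replicate 2 lay 1879 bp or more from the start, inside the window but outside the CG-rich stretch printed above, which held no peak.

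Nkx2-1 encodes the homeodomain factor that sets lung identity and activates the surfactant genes, at chr12:56531935-56536908 on the minus strand. No list had a peak in its window. The nearest peaks of 5 lists were at one place, 6333 to 6406 bp downstream of the gene and inside Sfta3-ps, a neighbouring transcript annotated as a lncRNA. There the percentiles were 89.0, 85.3 and 70.8 in the transgenic and 66.4 and 89.5 in wild-type replicates 1 and 2, and the nearest peak of wild-type replicate 3 was 67485 bp away. This place lies outside the window and was chosen after its values were seen.

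**Figure D5:**
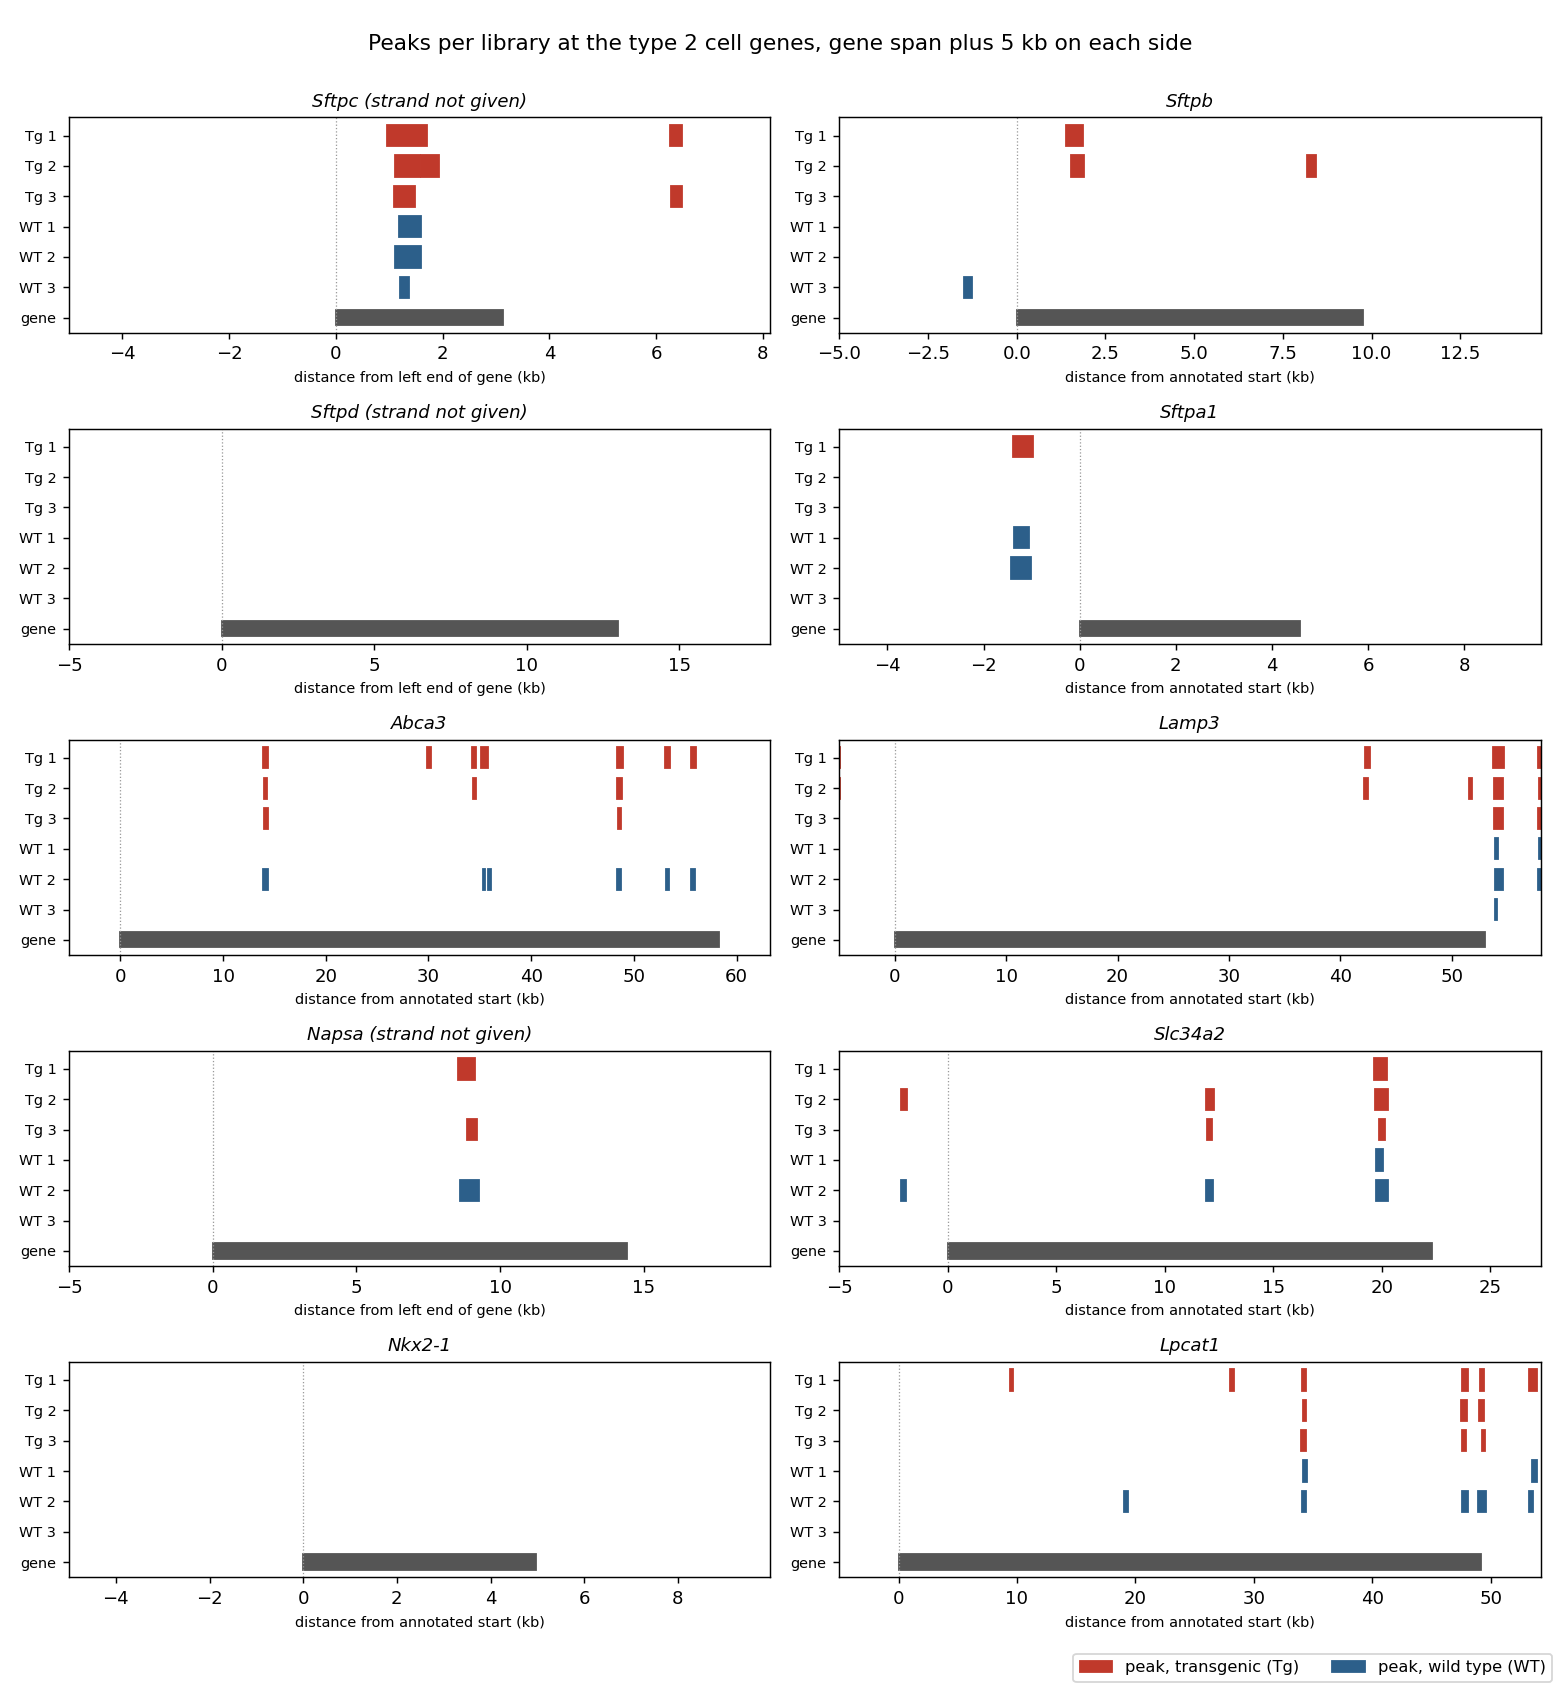
Peaks of each library (rows; Tg, transgenic, red; WT, wild type, blue) over each gene (grey bar) and 5 kb on each side; the x axis is the distance in kb from the annotated start, or from the left end where the strand was not given. The Sftpc body and the Lamp3 end carry a peak in all 6 lists, Sftpd and Nkx2-1 in none, and wild-type replicate 3 has 3 peaks in all.

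Merging the 6 lists gave 29 regions that touched the windows, of which 20 reached into a gene body. A peak in lists of both groups was found at 18 of them (62.1%), in transgenic lists only at 9 (31.0%) and in wild-type lists only at 2 (6.90%). Over all 165995 merged regions the shares were 62.6%, 26.0% and 11.4%. Of the 9 transgenic-only regions, 5 rested on a single list and none had a peak in all 3 transgenic lists.

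Other genes of the lung epithelium were described by the same counts. In a list of 25 other type 2 genes (transcription factors such as Cebpa and Foxa2, lipid enzymes such as Fasn and Scd1, and secreted products such as Lyz2), 2 of the 20 with a strand had a start-zone peak in any list (10%, near the 14.8% of protein-coding genes). These were Hc, the complement C5 gene (4 lists, 3 of them transgenic), and Stard10, a lipid-transfer protein gene (2 lists, both transgenic). None of the 25 was higher or lower in every transgenic library (5.44% and 0.0137% of protein-coding genes), and 5 had no peak (20%, against 19.2%). One of the 25, Lgi3, lies 4466 bp from Sftpc, so their windows overlap and share the region at chr14:70527200-70527432. Of 10 type 1 genes, which mark the thin gas-exchange cell, 3 of the 8 with a strand had a start-zone peak (37.5%, against the same 14.8%): Clic5, a chloride channel gene (5 lists), Aqp5, a water channel gene (4 lists), and Hopx, a homeodomain-only protein gene (2 lists). These shares were not tested against each other.

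No member had a region of the authors' deposited table of 407 differential regions in its window, as against 0.854% of protein-coding genes, so that 0 of 10 is near that background. In the authors' deposited table the closest region lay 446384 bp from Nkx2-1, inside the mitochondrial carrier gene Slc25a21, with a log2 fold of 2.57 (FDR 0.0522). For the other members the distance was from 583381 bp (Sftpa1) to 2729903 bp (Slc34a2) in the authors' deposited table. The separations of Sftpc and Lamp3 described above are thus in the peak lists, with no counterpart among the authors' differential regions.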

How the data were processed

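Whole-lung DNA of 3 transgenic and 3 wild-type mice was captured with a methyl-binding kit, per the labels' protocols. Reads were aligned with Bowtie to mm10, and DiffBind and edgeR are named, per the submitters' processing notes, without versions. The peak lists, 1 per library, carry peak names as MACS writes them, per the file headers and names; version and settings: not given in the sources used here. Each deposited peak has the authors' own score, of at least 50, which no step scales across libraries. The authors' deposited table gives a log2 fold, equal to the transgenic minus the wild-type log2 concentration, with an FDR and p-value per region, and how it was normalized is unknown here.

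From these, covered bases, peak counts, zones and score percentiles were computed with Python 3.11.15 and numpy 2.4.6 for all 49943 RefSeq genes on chromosomes 1 to 19, X and Y (an overlap of 1 bp counts), and groups were compared by exact permutation. Strands came from the RefSeq promoter table. Peaks were merged over lists where they shared or touched. All 10 members are named, and other genes by their number of lists with a start-zone peak; the members and lists were chosen with earlier results of these data known. On simulated data 200 of 200 planted genes were recovered, which checks the computation only. The share of real differences that the rule would find was not tested. Planned scaling to the percent of the chromosomes covered was done as bp per Mb of list, which is proportional to it. Alternatives were other flanks (2 and 10 kb) and zones (500 and 2000 bp), the 30637 top-scoring peaks of each list, peaks with a score of 96.3 (the pooled median) or more, peak numbers, a replicate block and leaving out each library.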

Additional observations from a re-analysis of the deposited data

How the results depend on the processing

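The count of members higher in every transgenic library was 2, where 5.44% of protein-coding genes met the rule. In parentheses below is the share of protein-coding genes at the same setting. The count became 1 with a flank of 2 kb (Lamp3, 5.12%) or 10 kb (Sftpc, 5.37%). It was also 1 with lists shortened to equal length by score (Lamp3, 4.67%), scaling to the covered sequence (Lamp3, 4.93%) and peak numbers (Sftpc, 2.83%). With peaks from the pooled median score upwards it was again 2 (4.3%), but these were Abca3 and Lamp3 and not Sftpc. It was 2 to 5 without any 1 library, and the highest value, 5, came without wild-type replicate 2, when 47% of protein-coding genes met the rule. Without transgenic replicate 3 it was 3 (28.4%), and without any other single library it was 2 (5.45% to 7.26%). No setting gave a member lower in every transgenic library or one with a differential region. The difference in covered share, transgenic minus wild type, changed sign for Sftpb (-0.34 percentage points) and Lpcat1 (-0.20) with lists of equal length, and for Napsa (-0.085) with peaks from the pooled median score upwards. Scaled to covered sequence it was -0.72 bp per Mb for Sftpc and -3.47 for Sftpb. Leaving out 1 library gave -0.17 to 1.32 for Napsa, -1.69 to -0.14 for Sftpa1, and no sign change for the other members. Sftpa1 was at 0 with lists of equal length and with peaks from the pooled median score upwards. The cause was not tested.

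Zone shares, in percent of pairs of member and library, moved as follows, with the share of protein-coding genes at the same setting in parentheses. The start zone went from 2.38 (7.38) to 19.05 (12.8) at 2000 bp. The end zone went from 23.8 (14.1) to 9.52 (8.32) at 500 bp, and to 11.9 both with lists of equal length (4.87) and with a rule that the peak's midpoint lie inside (10.97). Either end went from 20.0 (19.5) to 6.67 (12.5) at 500 bp, 40 (31.5) at 2000 bp and 8.33 (16.3) by the midpoint rule. With lists of equal length the body went from 45 (51.0) to 16.7 (30.5), either flank from 28.3 (26.2) to 13.3 (9.52) and the upstream flank from 19.05 (13.5) to 7.14 (4.49).

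With the replicate number as a block (replicate block), the Sftpc difference was 3.32 percentage points with an exact sign-flip p = 0.25, the smallest that 3 pairs allow. Lamp3 and Slc34a2 reached the same sign-flip p of 0.25, and the groups of Slc34a2 overlapped. The numbers are not shown to pair the animals: deviations of same-numbered libraries correlated at -0.25, 0.096 and 0.54 over genes, and 3 of 6 libraries correlated best with their own number. Read depth is unknown, and a missing peak in wild-type replicate 3 cannot be told apart from too little signal.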

Other observations

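Beyond the 5 kb windows, a region inside Bmp1, a metalloprotease gene, 8122 bp to the left of Sftpc, had percentiles of 81.5, 77.1 and 76.9 in the transgenic and 68.9 and 71.4 in wild-type replicates 1 and 2, and no peak in wild-type replicate 3. The place was chosen after its values were seen, and it is not a differential region of the authors' deposited table.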
